A study of Mus musculus with 2 samples.

Results

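The genes described here are 34 genes of glycolysis and of the cellular response to low oxygen, measured in ureters of mouse embryos. They were taken by gene symbol in the array files, each by its brightest probe (mean processed signal), out of 31791 symbols on the array. Of the 34, 20 act in glucose uptake, glycolysis or the fate of pyruvate and lactate, and 14 belong to the hypoxia response. All 34 entered the test, all were well above background in each of the 4 RNAs, and none was saturated.

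The study measured total RNA of ureters of NMRI mouse embryos at stage E18.5 on 2 Agilent 2-colour arrays. Embryos of the mutant group, labelled Tbx2/Tbx3cDKO (here cDKO), carried 1 Cre allele at Tbx18, written Tbx18(cre/+), with floxed alleles on both copies of Tbx2, Tbx2(fl/fl), and of Tbx3, Tbx3(fl/fl). The Tbx18 locus drives Cre in the mesenchyme around the developing ureter. Controls were Tbx18(+/+) and thus without Cre, and had at least 1 floxed allele of each gene, written Tbx2(fl/?) and Tbx3(fl/?). On array 1 (replicate 1) both RNAs came from males and the mutant one carried AlexaFluor647 (red). On array 2 (replicate 2) both came from females and the mutant one carried AlexaFluor555 (green). Sex, dye and replicate therefore cannot be told apart. The number of embryos behind an RNA is not given in the labels, nor are the exons that the floxed alleles lose.

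Each array gives 1 log2 ratio of the RNA labelled cDKO over control RNA, so a value of -1 is a halved intensity. Errors are SD over the 2 arrays, and a gene is called when its adjusted p in limma's moderated test is under 0.05. Neither targeted gene had a lower signal in mutant RNA. Tbx2 had ratios of 1.04 and 0.44, Tbx3 of 0.78 and 0.55, and the driver Tbx18 of 0.81 and 0.81, and all 3 were called higher. As the deleted exons are not given, these probes may lie outside them and do not check the genotype. In the female RNA labelled cDKO, the Y-linked transcripts Ddx3y and Eif2s3y had 12.6% and 9.52% of their processed signal in the male RNA labelled cDKO. These shares compare signals across arrays and dyes, without scaling between arrays. Within array 2 the ratios of Ddx3y and Eif2s3y were 4.12 and 3.61. Liver markers were also high in this female RNA: the median ratio of the 10 markers was -0.45 on array 1 and 2.70 on array 2. Values below are therefore given for each array, and "cDKO" always means the RNA labelled so.

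By the median absolute log2 ratio, most marker lists moved more than the genes described here (0.24). Smaller values were seen only for markers of urothelium (0.22), neurons and glia (0.18) and macrophages (0.14). In counts of list genes, "rose" and "fell" mean called higher and called lower. Of 14 smooth muscle markers 13 fell (median -2.09), and of 14 striated muscle markers 9 fell (median -1.25). With or without a call, the mean was below 0 for all 14 smooth muscle and 11 striated muscle markers. Called higher were 7 of 10 fibroblast markers (median 0.76) and 3 of 10 endothelium markers (0.41). The same held for 1 of 11 red blood cell markers (0.44) and 7 of 10 kidney markers tested (1.3). With or without a call, the mean was above 0 for 9 fibroblast, 10 endothelium, 9 red blood cell and 10 kidney markers. No marker was called among 13 of urothelium (median 0.20), 10 of liver (1.06), 8 of macrophages (-0.14) and 8 tested of neurons and glia (0.03). Summed over the list, the smooth muscle intensity was 446603 in cDKO and 2122399 in control RNA on array 1, and 353646 and 1738368 on array 2. No smooth muscle marker was below background in all RNAs. Whole ureters were measured, so fewer cells of a type and less RNA per cell cannot be told apart. The part of these shifts in the values below was not tested.

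Glycolysis breaks glucose down to pyruvate in the cytosol. Most of its steps are served by several isozymes, of which some prevail in muscle, liver or brain. When oxygen is scarce, prolyl hydroxylases no longer mark the HIF alpha subunits for destruction, and HIF dimers bind DNA at a short core sequence and raise transcription of glucose transporters, glycolytic enzymes, vascular factors and stress proteins. Many genes of the present list are textbook targets of this pathway.

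The median of the list lay close to 0, while its median absolute log2 ratio was 0.24, beside 0.15 over all genes tested. Of the 34 genes, 0 were called higher, 2 were called lower (5.88%) and 32 were not called (limma, Benjamini-Hochberg). Among all 23361 genes tested, 4.43% were called in either direction, 2.17% higher and 2.26% lower. At an unadjusted p under 0.05 there were 8 of the 34 genes (23.5%), all 8 lower, beside 16% of all genes in either direction and 6.4% lower. The share called lower thus rests on 2 genes. The median log2 ratio was -0.08 over the list and 0.00 over all genes tested, with a range in the list from -0.87 (Eno3) to 0.32 (Ndrg1). A fixed rule of at least 1.5-fold on both arrays took 0 genes higher (1.49% of all genes) and 1 lower, Eno3 (1.72% of all genes). For 31 of the 34 genes the 95% limma interval lay inside a 2-fold change in either direction; the exceptions were Eno3, Ankrd37 and Ero1l.

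The arrays differed in where the list lay. On array 1 its median was -0.02, and on array 2 it was -0.19. The ratio was higher on array 1 than on array 2 for 24 of the 34 genes, beside 53.9% of all genes. Below 0 on both arrays were 16 genes (47.1%, beside 28% of all genes), and above 0 on both were 6 (17.6%, beside 31.7%). Opposite signs were seen in 12, beside 9407 of the 23361 genes tested. This split depends on the normalization. With median centring in place of loess, the list's medians were 0.38 and -0.36, beside 0.22 and -0.02 over all genes. Below 0 on both arrays were then 7 of the 34 genes, beside 17.1% of all genes. Higher on array 1 than on array 2 were 31, beside 67.7% of all genes. Of the 20 glycolysis genes 16 were higher on array 1 than on array 2, with medians of 0.03 and -0.18. The 14 hypoxia response genes had medians of -0.31 and -0.24. A mean ratio below 0 was seen in 11 of them, beside 11461 of the 23361 genes tested.

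**Figure D1:**
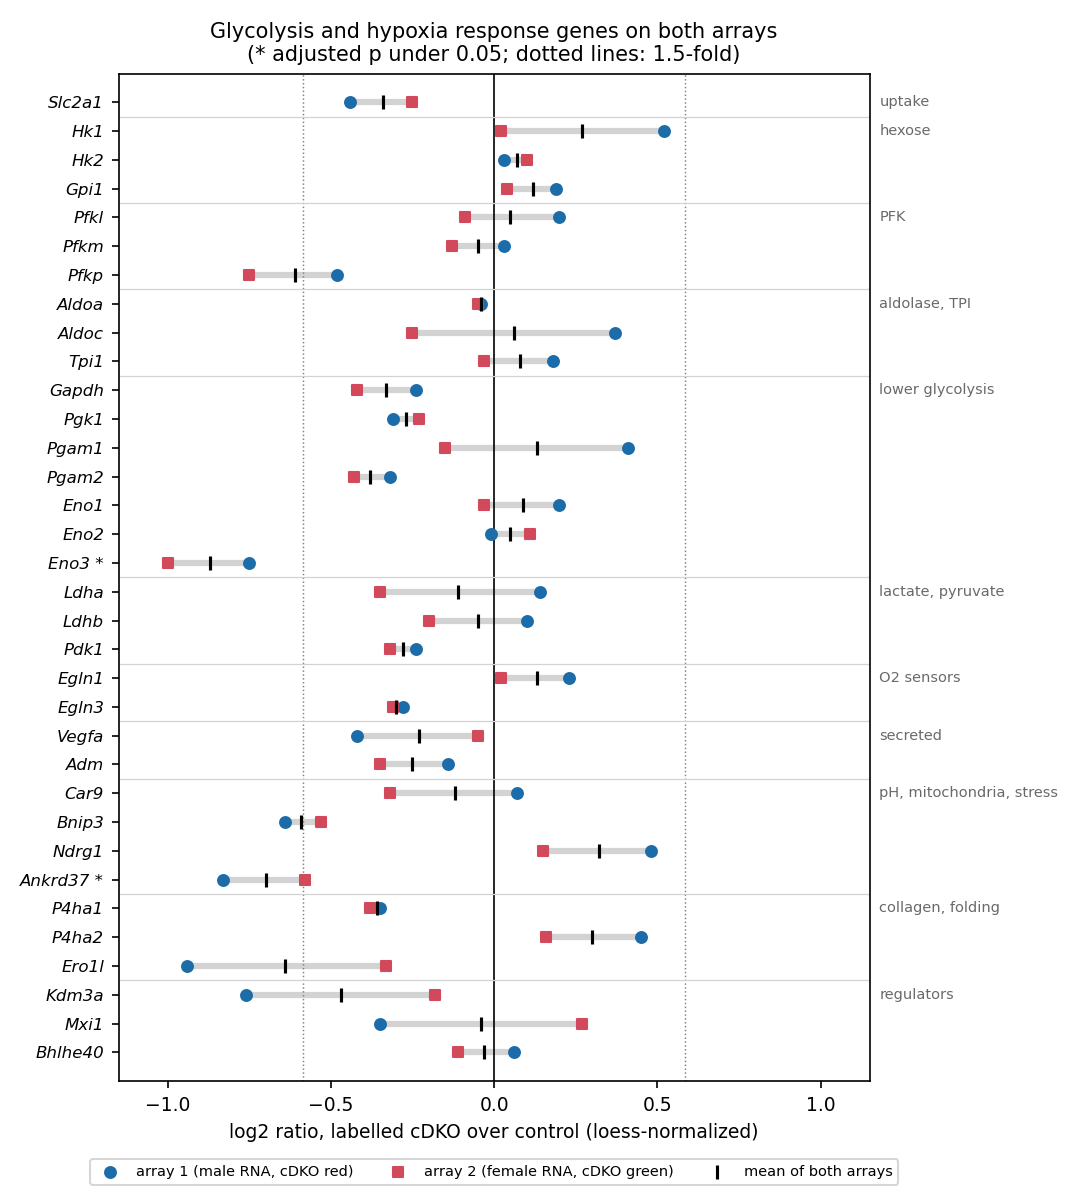
Log2 ratio of labelled cDKO over control RNA for each of the 34 genes (vertical axis, ordered by role) on array 1 (circles) and array 2 (squares), with the mean of both as a bar and a grey line between the arrays. Dotted lines mark 1.5-fold. Only Eno3 lies beyond the line on both arrays, and stars mark the 2 called genes, Eno3 and Ankrd37.

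**Figure D2:**
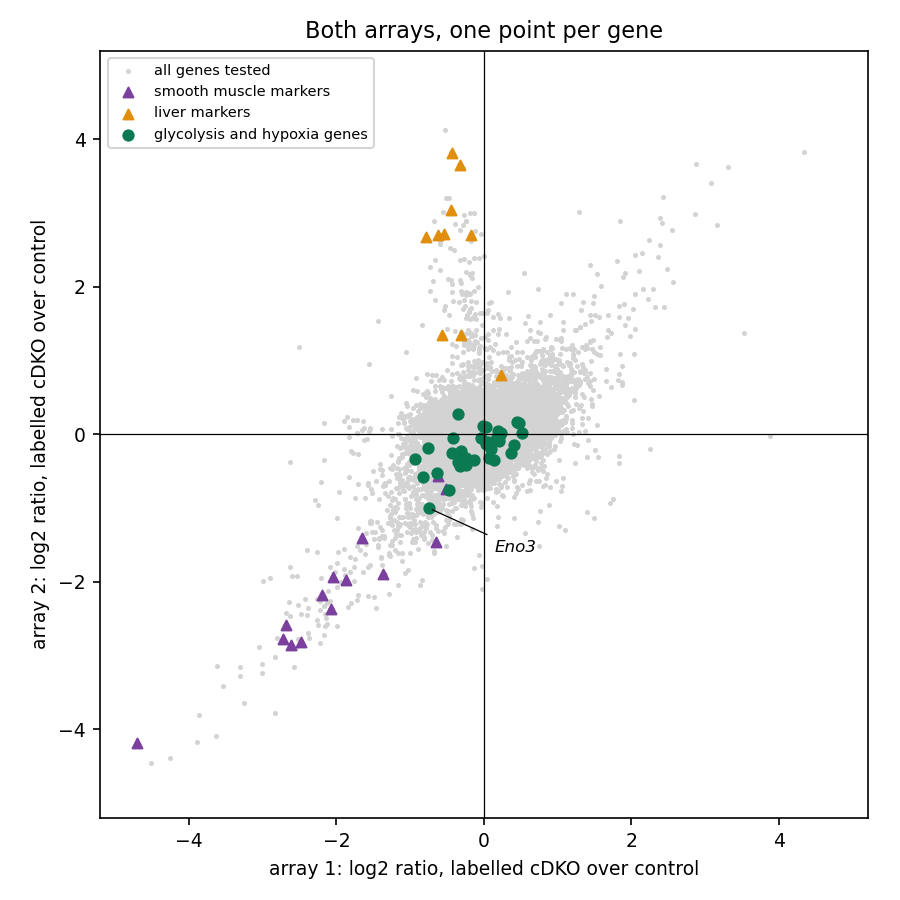
Log2 ratio on array 1 (horizontal axis) against array 2 (vertical axis), 1 point per gene, for all 23361 genes tested (grey), smooth muscle markers and liver markers (triangles) and the 34 glycolysis and hypoxia genes (circles). The 34 genes sit within 1 log2 unit of 0 on both axes, smooth muscle markers lie low on both arrays, and 9 of the 10 liver markers are below 0 on array 1 and above 0 on array 2.

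ACGTG on either strand, a form of the core HIF motif, was looked for in RefSeq promoter windows (GRCm38.p6, 250 bases before to 50 after a start site). The other form, GCGTG, was not searched, so a gene without a match may still hold a core HIF motif. A window was found for 32 of the 34 genes, Ndrg1 and Bhlhe40 having none in the table. The motif stood in a window of 20 of these 32 genes (62.5%), beside 5886 of 27025 genes in the table (21.8%). By window the shares were 23 of 48 (47.9%) and 6447 of 32851 (19.6%). Base composition was not matched between these sets, and the palindrome CACGTG, an E-box read by other factors, holds the motif on both strands and counts there as 2 matches. The 20 genes with a motif had a median ratio of -0.12 (14 below 0), and the 12 without had -0.15 (7 below 0). Of the called genes, Eno3 had no match and Ankrd37 had 2.

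The upstream 250 bases are shown for the called genes Eno3 and Ankrd37, for Pfkp, Bnip3 and Ero1l, whose adjusted p lay between 0.05 and 0.07, and for Ldha, which had the most matches and was not called. Capitals mark ACGTG on either strand, and each sequence runs on the gene's strand up to the base before the start site.
Eno3 (chr11:70656926-70657175, plus strand): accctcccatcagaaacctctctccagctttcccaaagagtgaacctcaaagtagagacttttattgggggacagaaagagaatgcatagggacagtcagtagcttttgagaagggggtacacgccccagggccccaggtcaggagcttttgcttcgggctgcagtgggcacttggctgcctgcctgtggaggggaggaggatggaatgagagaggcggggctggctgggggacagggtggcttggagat
Ankrd37 (chr8:45999851-46000100, minus strand): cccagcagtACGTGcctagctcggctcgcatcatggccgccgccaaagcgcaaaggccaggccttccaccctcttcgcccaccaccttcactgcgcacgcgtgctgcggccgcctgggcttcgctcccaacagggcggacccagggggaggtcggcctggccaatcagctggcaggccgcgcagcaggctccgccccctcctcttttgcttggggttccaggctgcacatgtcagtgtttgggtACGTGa
Bnip3 (chr7:138909507-138909756, minus strand): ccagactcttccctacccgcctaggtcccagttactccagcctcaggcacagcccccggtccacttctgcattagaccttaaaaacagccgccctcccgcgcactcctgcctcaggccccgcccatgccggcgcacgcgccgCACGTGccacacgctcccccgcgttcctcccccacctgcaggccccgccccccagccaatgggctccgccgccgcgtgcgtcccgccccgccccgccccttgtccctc
Ero1l, in RefSeq Ero1a (chr14:45318573-45318822, minus strand): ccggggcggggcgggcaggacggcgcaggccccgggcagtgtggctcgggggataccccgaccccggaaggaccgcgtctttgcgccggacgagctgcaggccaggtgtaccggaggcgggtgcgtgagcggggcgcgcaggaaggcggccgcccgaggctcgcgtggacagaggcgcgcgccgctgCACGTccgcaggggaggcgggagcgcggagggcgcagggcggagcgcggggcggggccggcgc
Pfkp (chr13:6648772-6649021, minus strand): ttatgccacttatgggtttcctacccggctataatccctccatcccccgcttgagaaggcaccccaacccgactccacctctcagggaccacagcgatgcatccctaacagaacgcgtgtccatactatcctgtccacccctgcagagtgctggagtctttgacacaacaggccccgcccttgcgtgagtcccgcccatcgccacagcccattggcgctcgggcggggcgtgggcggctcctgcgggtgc
Ldha (chr7:46845554-46845803, plus strand): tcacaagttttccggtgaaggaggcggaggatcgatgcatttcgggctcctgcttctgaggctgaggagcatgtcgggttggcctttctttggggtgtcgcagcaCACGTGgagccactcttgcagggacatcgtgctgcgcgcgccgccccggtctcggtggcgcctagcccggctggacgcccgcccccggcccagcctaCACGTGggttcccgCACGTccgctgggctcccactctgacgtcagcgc
Eno3 and Pfkp had no ACGTG. The form GCGTG, not searched, does occur in both sequences, in Eno3 on the other strand. Ankrd37 had matches 241 and 6 bases before its start, Ero1l 1 at 63 bases, and Bnip3 a CACGTG at 108 bases. Ldha had 2 copies of CACGTG and 1 further match, all within 145 bases of its start.

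Glucose enters cells through facilitative transporters, of which Slc2a1 (GLUT1) is the widespread form and an established HIF target. Its normalized intensity was 47114 in cDKO and 63785 in control RNA on array 1, and 44091 and 52463 on array 2. The log2 ratio was -0.34 ± 0.13 (SD, n = 2), 1.27-fold lower, and was not called (adjusted p = 0.336). Lower values in cDKO RNA thus stood on both arrays, within a limma interval from -0.69 to 0.01. These intensities are normalized within each array and not between arrays, so they are compared only within an array.

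The opening steps of glycolysis phosphorylate glucose and rearrange the hexose. By their brightest probes, the hexokinases Hk1 and Hk2 and the isomerase Gpi1 were above 0 on both arrays and not called. Hk1 had the widest gap, with ratios of 0.52 on array 1 and 0.02 on array 2, and its other probe gave 0.36 and -0.16. Hk2 had 0.03 and 0.10, and Gpi1 0.19 and 0.04. Of the other Gpi1 probes, 1 had 0.13 and 0.02 and 1 had 0.27 and -0.08.

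Phosphofructokinase sets the pace of glycolysis and has liver (Pfkl), muscle (Pfkm) and platelet (Pfkp) forms. For Pfkp the intensity was 906.2 in cDKO and 1260 in control RNA on array 1, and 806.4 and 1352 on array 2. The mean ratio was -0.61 ± 0.19 (SD, n = 2), 1.53-fold lower, which missed the threshold (adjusted p = 0.0523). A second Pfkp probe had the opposite sign, 0.29 and 0.10 (adjusted p = 0.665). The mm9 placement of the brighter probe spans chr13:6581718-6583872 and that of the other chr13:6579124-6579183, so the probes read different stretches of the gene. The mean over both probes was -0.21 (adjusted p = 0.617), and no direction is given for Pfkp. Pfkl (0.20 and -0.09) and Pfkm (0.03 and -0.13, a mean over 10 spots) lay near 0 with opposite signs on the arrays. On each array the brighter Pfkp probe was lower than Pfkl, by -0.68 and -0.65.

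The aldolases split the hexose, and Tpi1 interconverts the resulting trioses. Aldoa, the form abundant in muscle and most embryonic tissue, had the steadiest value of the list, -0.04 and -0.05. Aldoc had 0.37 and -0.25, and Tpi1 0.18 and -0.03, while a second Tpi1 probe had -0.02 and -0.07. None was called, and for Aldoc the spread between arrays (SD 0.44) was far larger than its mean of 0.06.

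The lower part of the pathway, from Gapdh to enolase, yields ATP and NADH and held the most strongly shifted gene. Eno3 encodes beta enolase, the muscle form of the enzyme that makes phosphoenolpyruvate, and its probe lies at chr11:70475953-70476012 (mm9). The Eno3 intensity was 7491 in cDKO and 12594 in control RNA on array 1, and 6867 and 13688 on array 2. The level in cDKO RNA was thus 0.595 and 0.502 of that in control RNA. Eno3 fell, with a mean log2 ratio of -0.87 ± 0.17 (SD, n = 2), 1.83-fold, with a limma interval from -1.23 to -0.52 (adjusted p = 0.00505). Both cDKO values lay below the control value of their array, with ratios of -0.75 and -1.0. The call was lost with Agilent's processed signals (-0.91, limma adjusted p = 0.114), with median centring (-0.67, 0.873) and with the deposited value table (-0.91, 0.306). The sign held in all settings. Over all genes, calls lower numbered 527 in the main fit, 205 with processed signals, 157 with median centring and 0 with the value table.

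The other enolases did not share this value. Eno1, the alpha form found in most cells, had 0.20 and -0.03, and Eno2, the gamma form of neurons and endocrine cells, had -0.01 and 0.11. The difference between the ratios of Eno3 and Eno1 was -0.95 and -0.97, and that between Eno3 and Eno2 was -0.74 and -1.11. These differences between genes were not tested. Of the 14 striated muscle markers, 9 fell as Eno3 did, with a range of means from -4.33 to 0.41, and 3 of the 14 had a mean above 0. The intensities of the 14 striated muscle markers summed to 66215 in cDKO and 476266 in control RNA on array 1 and 67141 and 463478 on array 2. The part of these transcripts in the fall of Eno3 was not tested.

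Pgam2, the muscle form of phosphoglycerate mutase, was also lower on both arrays but was not called. Its intensities were 357.7 in cDKO and 447.2 in control RNA on array 1, and 302.5 and 407.7 on array 2, for a ratio of -0.38 ± 0.08 (SD, n = 2; adjusted p = 0.274). The Pgam2 signal was among the dimmest of the list. With Agilent's processed signals its ratio was -0.61, still without a call (limma, adjusted p = 0.26). The widespread form Pgam1 had 0.41 and -0.15. Gapdh, often used as a reference gene, had -0.24 and -0.42 (adjusted p = 0.356), and the means of its 7 probes ran from -0.33 to -0.08. All 7 were below 0 on array 2, but 4 of them were above 0 on array 1, at 0.01, 0.02, 0.07 and 0.12, so a lower Gapdh value on both arrays depends on the probe. One of those probes is placed on chromosome 8 rather than the gene's chromosome 6, and Gapdh has many processed copies in the genome. Pgk1, an established HIF target that makes the first ATP of the pathway, had -0.31 and -0.23 (adjusted p = 0.474). Its only probe is placed on chromosome 3 (chr3:57906830-57906894, mm9), while RefSeq has Pgk1 on X, so the transcript it reads is uncertain.

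**Figure D3:**
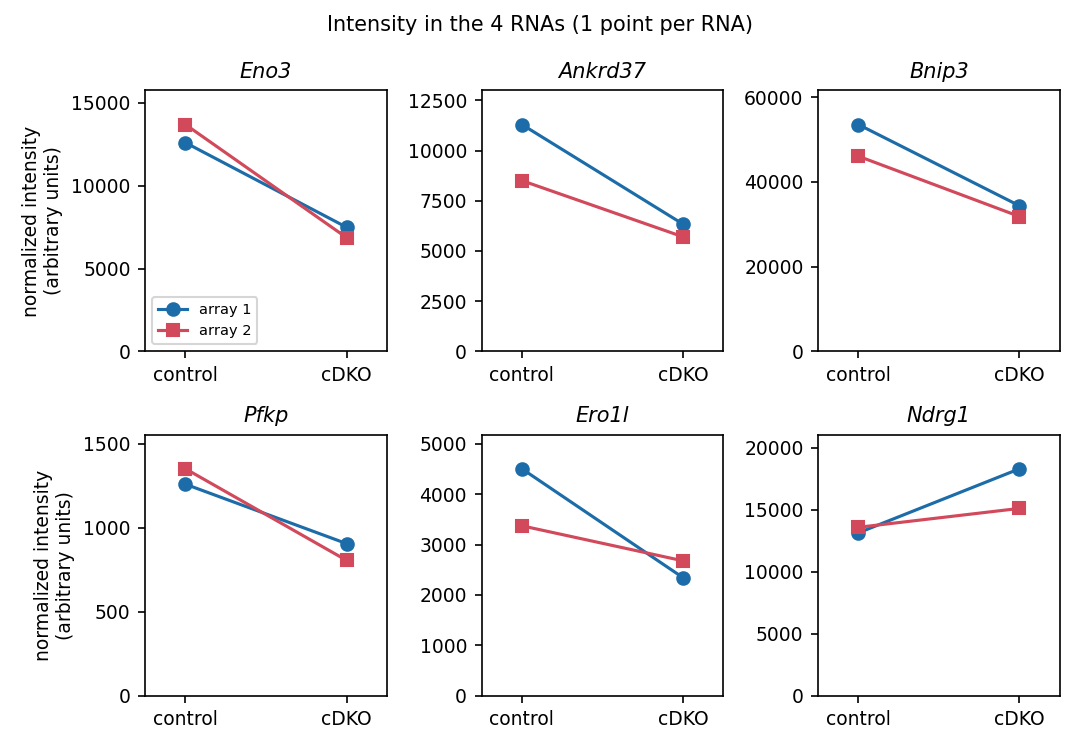
Normalized intensity (arbitrary units, linear axis from 0) in the control and cDKO RNA of array 1 (circles) and array 2 (squares) for 6 genes, with a line joining the RNAs of an array. Eno3, Ankrd37, Bnip3, Ero1l and the brighter of the Pfkp probes were lower in cDKO RNA on both arrays (the other Pfkp probe, not drawn, was higher), with the gap of Ero1l larger on array 1, and Ndrg1 was higher; only Eno3 and Ankrd37 were called.

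At the end of the pathway, lactate dehydrogenase turns pyruvate into lactate, and pyruvate dehydrogenase kinase keeps pyruvate out of the mitochondria. Ldha, the HIF-induced subunit, had 0.14 and -0.35 by its brightest probe, while its other 2 probes were below 0 on both arrays, with means of -0.14 and -0.29. Ldhb had 0.10 and -0.20. Pdk1, a HIF target, had -0.24 and -0.32 (mean -0.28 ± 0.06 (SD, n = 2); adjusted p = 0.449). None of the 3 was called.

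The prolyl hydroxylases Egln1 and Egln3 sense oxygen and are themselves induced by HIF. Egln1 had 0.23 and 0.02, and Egln3 -0.28 and -0.31, so the 2 paralogs differed on both arrays, by -0.51 and -0.33. Neither was called (adjusted p of 0.82 and 0.423). The secreted factors Vegfa, which drives vessel growth, and Adm, a vasodilator peptide, were below 0 on both arrays and not called. Vegfa had -0.42 and -0.05, and its second probe 0.30 and -0.34. Adm had -0.14 and -0.35.

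Among HIF targets of pH, mitochondria and stress, Ankrd37 was the second called gene. It encodes a small ankyrin repeat protein known as a direct HIF1 target, and its probe lies at chr8:47082404-47082463 (mm9). The intensity was 6340 in cDKO and 11297 in control RNA on array 1, and 5706 and 8504 on array 2. The level in cDKO RNA was 0.561 and 0.671 of that in control RNA, lower on both arrays. Ankrd37 fell, with a mean log2 ratio of -0.70 ± 0.18 (SD, n = 2), 1.63-fold, with an interval from -1.06 to -0.35 (adjusted p = 0.0224). The call was lost with processed signals (-0.74, adjusted p = 0.205), median centring (-0.50, 1), the deposited value table (-0.74, 0.399) and a threshold of 0.01. Each of these settings also called fewer of all genes, and the value table called 0.

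Bnip3, a mitochondrial protein of mitophagy, came close to the threshold. Its intensity was 34369 in cDKO and 53548 in control RNA on array 1, and 31841 and 46068 on array 2. The ratio was -0.59 ± 0.08 (SD, n = 2), 1.5-fold lower, with an adjusted p of 0.0586 for the probe at chr7:146082760-146082819 (mm9). Its other probes gave -0.54 (adjusted p = 0.0878) and -0.67 (adjusted p = 0.0286), so all 3 probes were lower on both arrays and 1 of them passed. Car9, the carbonic anhydrase that is among the best known hypoxia markers, had 0.07 and -0.32 and was not called. Ndrg1, a stress response gene, went the other way without a call, with intensities of 18301 in cDKO and 13134 in control RNA on array 1, and 15105 and 13580 on array 2. Its ratio of 0.32 ± 0.23 (SD, n = 2; adjusted p = 0.401) was the highest of the list.

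Another 3 genes act in collagen hydroxylation and oxidative folding. Ero1l, the oxidase that reloads protein disulfide isomerase, had intensities of 2343 in cDKO and 4504 in control RNA on array 1, and 2677 and 3372 on array 2. The ratios were -0.94 and -0.33 (mean -0.64 ± 0.43 (SD, n = 2), 1.56-fold lower), and the gene missed the threshold (adjusted p = 0.0647). The prolyl 4-hydroxylase alpha subunits P4ha1 and P4ha2 are HIF targets, but they had opposite signs. P4ha1 had -0.35 and -0.38 (adjusted p = 0.296), and P4ha2 0.45 and 0.16 (adjusted p = 0.422). The difference between their ratios was -0.79 on array 1 and -0.54 on array 2, and was not tested.

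Of the regulators induced by hypoxia, the histone demethylase Kdm3a had intensities of 13598 in cDKO and 22963 in control RNA on array 1, and 14650 and 16573 on array 2. Its mean ratio was -0.47 ± 0.41 (SD, n = 2; adjusted p = 0.20), and like Ero1l it was lower on array 1 than on array 2. Mxi1, a repressor of the MYC network, had -0.35 and 0.27, and Bhlhe40, a repressor with a basic helix-loop-helix domain, had 0.06 and -0.11. None of the 3 was called.

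Other genes of both pathways, from lists apart from the 34, gave 3 and 2 calls. Of 46 tested genes of glucose uptake, glycolysis, gluconeogenesis and pyruvate handling, 2 rose (4.35%) and 1 fell (2.17%), with a median of 0.00. Among all genes tested, 2.17% rose and 2.26% fell. Slc2a4 (GLUT4), the insulin-responsive transporter of muscle and fat, fell, with a log2 ratio of -1.30 ± 0.14 (SD, n = 2), 2.47-fold (adjusted p = 0.000138), with intensities of 5569 in cDKO and 12835 in control RNA on array 1 and 5191 and 13711 on array 2. Pcx, pyruvate carboxylase, rose by 0.69 ± 0.08 (SD, n = 2; adjusted p = 0.0232). Liver markers summed to 91493 in cDKO and 125457 in control RNA on array 1 and to 423339 and 95814 on array 2, and kidney markers to 31697 and 10916 and to 20906 and 15042. The part of muscle, liver and kidney RNA in the values of these lists was not tested. At an unadjusted p under 0.05 there were 12 of the 46, of which 6 were higher and 6 lower. Over all genes the share was 16% in either direction and 6.4% lower.

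Of 49 other genes of oxygen sensing and the hypoxia response, 2 rose (4.08%, beside 2.17% of all genes) and 0 fell, with a median of 0.04. Cxcl12, a chemokine, rose by 0.83 ± 0.22 (SD, n = 2; adjusted p = 0.00772). Epas1, which encodes the HIF2 alpha subunit prominent in endothelium, rose by 0.72 ± 0.17 (SD, n = 2; adjusted p = 0.0195), with intensities of 61639 in cDKO and 34532 in control RNA on array 1 and 53356 and 35174 on array 2. At an unadjusted p under 0.05 there were 21 of the 49, of which 14 were higher and 7 lower, beside 16% of all genes in either direction. Hif1a and Arnt, named here after their values were seen since they encode the HIF1 dimer, were not called: Hif1a had -0.63 and 0.11, and Arnt 0.22 and 0.26. Of 10 endothelium markers 3 were called higher, with summed intensities of 142111 in cDKO and 99799 in control RNA on array 1 and 123043 and 99947 on array 2. Their part in the value of Epas1 was not tested.

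**Figure D4:**
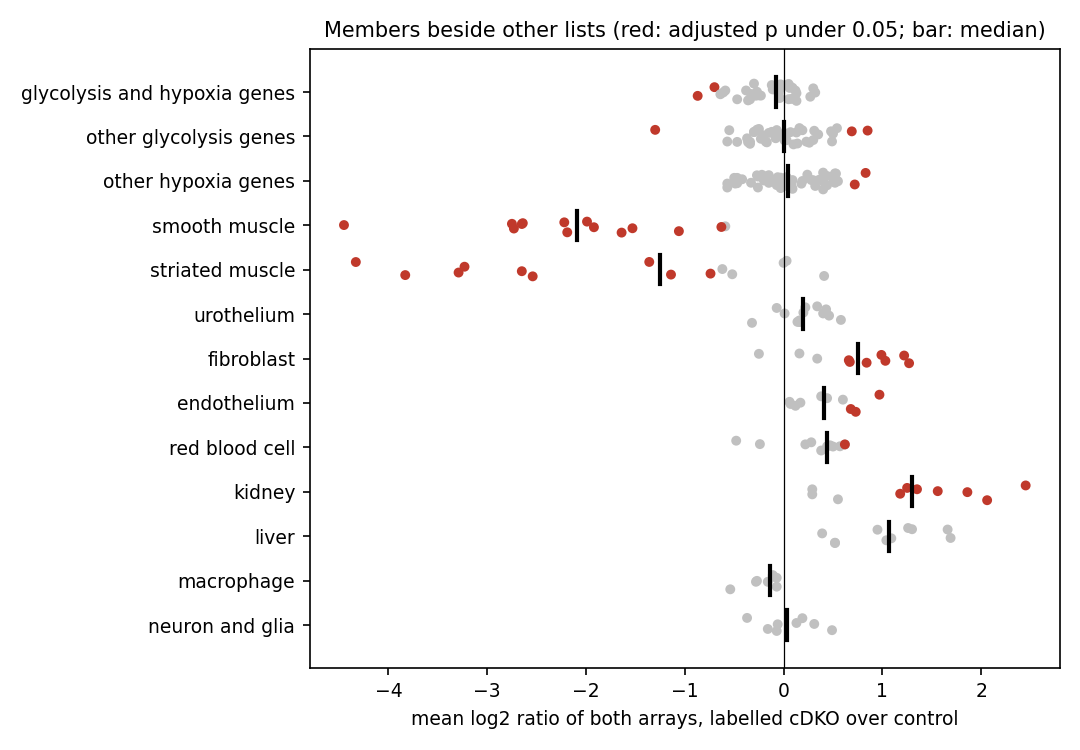
Mean log2 ratio of both arrays (horizontal axis), 1 point per gene tested, for the 34 glycolysis and hypoxia genes, the other genes of both pathways and the marker lists (vertical axis), with calls in red and the median of a list as a bar. The median of the 34 genes is -0.08, close to 0, while smooth muscle markers have a median of -2.09.

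Across processing settings, no member changed from lower to higher or back among the called genes. Eno3 kept its call in 8 of 11 alternatives and Ankrd37 in 7 of 11, and their ratios ran from -0.91 to -0.67 and from -0.74 to -0.50. These counts overstate the support, since several alternatives reuse the main ratios. Aquantile left ratios and p-values unchanged, and other filters, variance priors or the threshold of 0.01 altered only the test. Both calls were lost with processed signals, median centring and the value table, and held with offset 0. Pfkp, Bnip3 and Ero1l sat at the border. All 3 were called lower with a stricter filter on dim probes and with a robust variance prior. Bnip3 and Ero1l were also called lower with an intensity trend and with the mean of a gene's probes. Each of these settings also called more of all genes lower, 584 to 662 against 527 in the main fit.

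**Figure D5:**
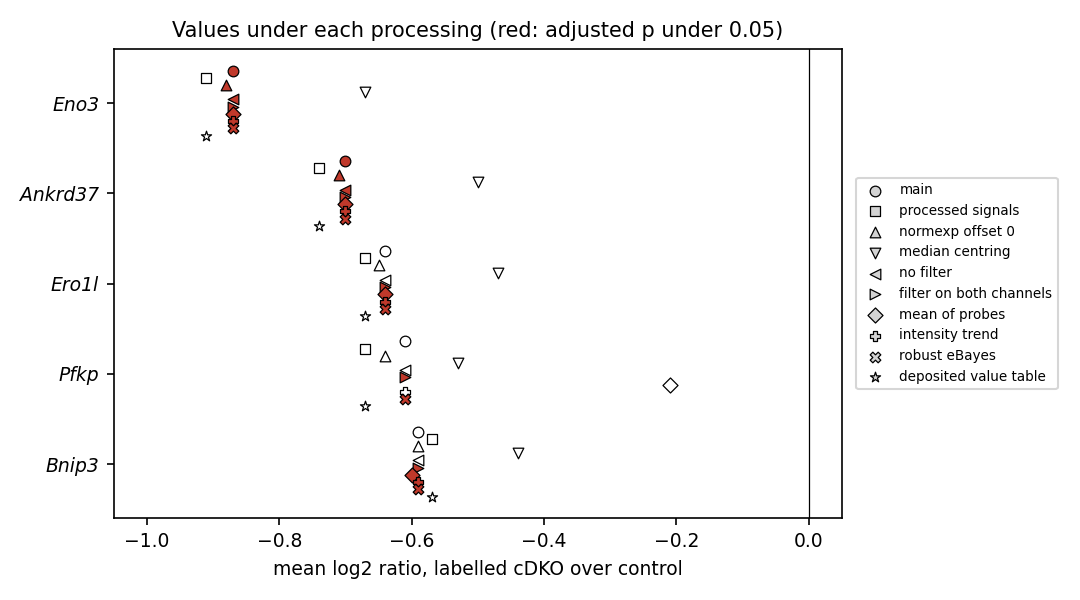
Mean log2 ratio (horizontal axis) of Eno3, Ankrd37, Ero1l, Pfkp and Bnip3 (vertical axis) under the main processing and 9 alternatives (symbols), red where the adjusted p was under 0.05. All values lie below 0; Eno3 is called under the main processing, but not with processed signals, median centring or the deposited value table.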

How the data were processed

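Total RNA of ureters was hybridised on 2 Agilent 2-colour arrays, each holding cDKO and control RNA. Agilent Feature Extraction 10.7.3.1 quantified the scans, per the file headers, and wrote for each spot and channel a mean intensity, a local background intensity and a processed signal intensity already background-subtracted and dye-normalized. The deposited 0 or 1 flags mark spots that are outliers, saturated or well above background. A deposited value table from the authors holds a score of unstated scale. It equalled a signed fold between the processed signals, cDKO over control, with a floor of 26.9 (array 1) and 20.4 (array 2), within 0.001 log2 for 100% of 44397 values, and its median was 1 in both columns. Probe coordinates are on mm9, without an annotation of that build, so exon and UTR positions were not analysed here.

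Background was corrected by normexp with an offset of 50, then loess with a span of 0.3 was fitted within arrays in limma 3.58.1 under R 4.3.3. Control spots and outlier spots (272 and 226) had weight 0. Of 39429 probes, 29298 were kept, being well above background on both arrays in at least 1 genotype; per channel, 72.1% to 81.6% of gene spots were well above background, with a median signal of 12.1 to 17.0 times background. The number of arrays limits the precision. Ratios were turned to labelled cDKO over control and their mean tested against 0 with limma (two-sided, Benjamini-Hochberg over all kept probes, threshold 0.05), and a gene was represented by its brightest probe (23361 genes). The p-values measure only the spread between these 2 arrays, which may be technical, and the pooled variance outweighs each probe's own (13.9 prior degrees of freedom to 1 residual). Tested on simulated data, the fit recovered the changed probes but made more false calls than the threshold aims at, so a call alone is weak support. The simulated errors were drawn independently for each probe and array, so effects of sex or dye were not part of them.

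Named are all 34 genes, other probes of a gene where they differ, Tbx2, Tbx3 and Tbx18, and up to 4 called genes of each of the 2 pathway lists, those with the largest ratio and 1 direction on both arrays; 1 gene that this rule takes is not reported here. The genes and lists were chosen with earlier results of these data known. Promoter windows came from RefSeq (GRCm38.p6), whose coordinates were not mixed with mm9. Alternatives were processed signals, offset 0, median centring, Aquantile, other filters, the value table, the mean of probes, other variance priors, other thresholds and each array alone.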

Additional observations from a re-analysis of the deposited data

Results flagged for a closer look

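In 12 of the 34 genes the arrays had opposite signs, beside 9407 of all 23361 genes tested. The share is thus no larger in the list than over all genes. The log2 ratio of array 1 minus that of array 2 was 0.62 for Aldoc, 0.56 for Pgam1, 0.50 for Ldha, 0.39 for Car9, 0.31 for Ldhb, 0.29 for Pfkl, 0.23 for Eno1, 0.21 for Tpi1, 0.16 for Pfkm and 0.16 for Bhlhe40. It was -0.12 for Eno2 and -0.62 for Mxi1. The median ratio of the 20 glycolysis genes was also above 0 on array 1 and below 0 on array 2, a gap of 0.21, and that of the other glycolysis genes had a gap of 0.13. For the liver markers the gap between medians was -3.15. None of these differences was tested, since each array is 1 sample and sex, dye orientation and replicate cannot be told apart.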

How the results depend on the processing

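The count of the 34 genes called higher was 0 in every setting run, and their median ratio stayed between -0.09 and -0.03 except for single arrays (-0.02 and -0.19). The 2 genes called lower became 0 with processed signals, with median centring and with the deposited value table, 1 at a threshold of 0.01, 4 with an intensity trend or the mean of probes, and 5 with the filter on both channels or robust eBayes. The 1 gene at least 1.5-fold lower on both arrays became 2 with processed signals or the value table, and 0 with median centring or a 2-fold rule; each array alone gave 2 to 5, with 5 without replicate 2. The 3 other glycolysis genes called became 1 with processed signals or a threshold of 0.01, 0 with median centring or the value table, and 5 with an intensity trend. The 2 other hypoxia genes called became 0 with processed signals, median centring or the value table, 1 with the mean of probes or a threshold of 0.01, and 9 with an intensity trend. Over all genes tested, calls higher and lower numbered 508 and 527, against 130 and 205 with processed signals, 163 and 157 with median centring, 930 and 662 with an intensity trend, 265 and 325 at 0.01, and 0 and 0 with the value table. With the filter on both channels they numbered 639 and 585 of 21903 genes, and with robust eBayes 621 and 586. The mean of probes gave 588 and 584. Median centring moved the median of all genes on array 1 to 0.22 and raised the median SD between arrays from 0.161 to 0.318, and 2 uncalled genes, Pfkm and Bhlhe40, changed sign there. The cause of the other moves was not tested. The main test is itself paired, as each ratio sets both genotypes of 1 array against each other, so its 1 group of ratios leaves no further block to fit. With 2 arrays, 1 residual degree of freedom stands behind each p.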
